A study of Mus musculus with 8 samples.

Results

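Adam12, Adamts12 and Mme encode metalloproteases that act at the cell surface or in the extracellular matrix, and they are 3 of the 273 genes with deposited 5-hydroxymethylcytosine (5hmC) values. They were chosen by gene symbol. The authors marked 220 of the 273 UP, Adam12 and Adamts12 among them, and 53 DOWN, Mme among them, by a rule that the sources used here do not give. 5hmC was measured by immunoprecipitation and sequencing of sonicated genomic DNA from primary myoblasts of mouse hindlimb muscle, grown in Ham's-F10 medium with horse serum and bFGF. Psat1KO cells (Pax7 CRE+/-;Psat1fl/fl) and CTRL cells (Pax7 +/+; Psat1fl/fl) both carried floxed Psat1, which encodes an enzyme of serine synthesis. Psat1KO cells also carried Cre at Pax7, a gene of muscle stem cells. The series holds 2 immunoprecipitated and 2 input libraries per genotype, and 4 immunoprecipitated libraries were analysed. The values came as 2 sheets, called set 1 and set 2 here, each with 1 Psat1KO and 1 CTRL library. The comparison asks whether 5hmC at these genes differed between the genotypes. Psat1 itself was not analysed here, so the deletion could not be checked.

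Metalloproteases cut proteins with the help of a bound metal ion, usually zinc. ADAM12 (meltrin alpha) is a membrane-anchored or secreted disintegrin and metalloprotease, linked in mouse muscle cells to myoblast fusion. ADAMTS12 is a secreted relative that binds and cleaves matrix proteins. MME (neprilysin, CD10) sits in the plasma membrane with its active site outside the cell and degrades short signalling peptides. 5hmC is made by TET enzymes from 5-methylcytosine, in mammals mostly at CpG dinucleotides, and is often found over the bodies of active genes. A difference in 5hmC is not a difference in expression.

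Adam12 (NM_007400) lies on chromosome 7, 133883199 to 134225097, minus strand. Adamts12 (NM_175501) lies on chromosome 15, 11064773 to 11349232, plus strand. Mme (NM_001289462) lies on chromosome 3, 63295211 to 63383713, plus strand. Coordinates are RefSeq gene bounds on GRCm38 (mm10). Mme, with 88503 bases, is shorter than Adam12 with 341899 and Adamts12 with 284460.

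Promoter sequences are shown because CpG dinucleotides are where 5hmC mostly forms and the start regions of these genes differ in how many they hold. The letters CG were searched, which read the same on both strands, and are in capitals. RefSeq's GRCm38.p6 promoters run from 250 bases before to 50 after a gene's start, and 2 of the 3 genes had an entry, Mme with 3 starts. The first pair below belongs to separate Mme starts, and the other to Adamts12, all on the plus strand.
Mme, chr3:63294961-63295260: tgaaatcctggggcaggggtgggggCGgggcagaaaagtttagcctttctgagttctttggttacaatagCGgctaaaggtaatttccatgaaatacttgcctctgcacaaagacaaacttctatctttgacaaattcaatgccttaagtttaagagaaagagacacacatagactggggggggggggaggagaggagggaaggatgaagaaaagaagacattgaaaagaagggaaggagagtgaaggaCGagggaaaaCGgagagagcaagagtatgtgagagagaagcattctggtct
Mme, chr3:63295622-63295921: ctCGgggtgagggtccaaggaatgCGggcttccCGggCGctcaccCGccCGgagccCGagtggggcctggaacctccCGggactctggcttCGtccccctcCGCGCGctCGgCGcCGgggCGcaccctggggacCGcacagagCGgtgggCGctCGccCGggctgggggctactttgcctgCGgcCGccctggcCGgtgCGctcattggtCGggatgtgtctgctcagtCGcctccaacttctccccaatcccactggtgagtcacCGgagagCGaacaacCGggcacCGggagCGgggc
Adamts12, chr15:11064523-11064822: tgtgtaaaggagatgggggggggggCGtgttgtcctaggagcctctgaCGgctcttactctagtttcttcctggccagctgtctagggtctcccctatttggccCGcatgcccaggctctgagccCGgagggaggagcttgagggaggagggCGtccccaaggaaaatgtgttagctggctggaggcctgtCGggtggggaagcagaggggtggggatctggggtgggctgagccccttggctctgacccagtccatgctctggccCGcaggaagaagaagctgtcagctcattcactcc
The upstream Mme promoter held 4 CpG, a number that 68.6% of the 32851 promoters of this collection reach or pass. The next Mme promoter held 32, reached by 9.52% of them, and a further Mme start, whose window overlaps it, had 29 CpG. The Adamts12 promoter held 7 CpG, the median of all promoters, and 94.6% of promoters held at least 1. The bins of the deposited profiles cannot be placed on these sequences, because neither their window nor their direction is stated.

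Each gene carried the same number of bins of coverage, in reads per 1000000 reads, and the level of a gene was its mean signal over the bins. It is a coverage per position and does not grow with gene length. The smallest steps of the values implied 30559008 reads in the Psat1KO and 22632699 in the CTRL library of set 1, and 69794435 in the Psat1KO and 69765569 in the CTRL library of set 2. The implied reads of a gene are its bin values divided by the step of the library and summed. They are coverage summed over bins, not a count of all reads on the gene. A bin without a read is a bin with a coverage under 0.05 of a read. A median UP gene had 73 and 154 implied reads over all its bins in the Psat1KO libraries of sets 1 and 2, against 52 and 146 in the CTRL libraries. At this depth single bins hold few reads, and set 2 gives the more precise values. Myoblast identity could not be checked from expression. Of 10 myoblast marker genes, 3 (Pax7, Myf5 and Myf6) were in the deposited values, all marked DOWN. Of 8 fibroadipogenic markers 7 were, and of 4 endothelial markers 2, all marked UP. No marker gene had an adjusted p under 0.05 in limma, and their part in the results was not tested.

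Adam12 carried more 5hmC signal in Psat1KO than in CTRL myoblasts in each set. Its signal was 0.0235 in set 1 and 0.0237 in set 2 in the Psat1KO libraries, against 0.0168 and 0.0205 in the CTRL libraries. Both Psat1KO libraries lay above both CTRL libraries, a pattern that 16.8% of the 220 UP genes shared. The implied reads were 73 and 167 in Psat1KO, against 38 and 144 in CTRL. The ratio of Psat1KO to CTRL signal was 1.4 in set 1, with a 95% counting interval of 0.949 to 2.16, and 1.16 in set 2, with an interval of 0.922 to 1.46. The means were 0.0236 ± 0.000158 in Psat1KO and 0.0186 ± 0.00262 in CTRL (SD, n = 2 each). On the log2(signal + 0.005) scale the difference was 0.28 with an SE of 0.12 and a 95% interval of -0.07 to 0.63, and limma gave an adjusted p of 0.953 over 273 genes, with an unadjusted p of 0.0905. Against the spread between libraries the difference did not pass the test, and both counting intervals included 1. The median level over all genes was also higher in Psat1KO, with 0.0235 against 0.0225 in set 1 and 0.0217 against 0.0205 in set 2. With libraries scaled to the same median, the Adam12 folds were 1.34 and 1.09, and the unadjusted p of limma was 0.229.

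Adamts12 carried slightly less signal in Psat1KO than in CTRL myoblasts within each set, by less than counting error. Its signal was 0.0319 in set 1 and 0.0252 in set 2 in Psat1KO, against 0.0345 and 0.0275 in CTRL. The genotypes overlapped over the 2 sets, because both libraries of set 1 were higher than both of set 2. Implied reads were 99 and 178 in Psat1KO, against 79 and 194 in CTRL. The fold was 0.925 in set 1 (95% counting interval 0.684 to 1.26) and 0.917 in set 2 (0.744 to 1.13). Of the UP genes, 22.7% were lower in Psat1KO within both sets and 30% were higher. The means were 0.0286 ± 0.00477 in Psat1KO and 0.0310 ± 0.00499 in CTRL (SD, n = 2 each), and the log2 difference was -0.10 with an interval of -0.60 to 0.39 (limma, adjusted p = 1). Without the CTRL library of set 1 or the Psat1KO library of set 2 this difference was 0.04. Leaving out 1 library leaves the sets unequally represented, and both libraries of set 1 were higher than both of set 2, while the fold within each set was below 1.

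Mme carried less signal in Psat1KO than in CTRL myoblasts in each set. Its signal was 0.0152 in set 1 and 0.0156 in set 2 in Psat1KO, against 0.0206 and 0.0189 in CTRL. Both Psat1KO libraries lay below both CTRL libraries, a pattern shared by 7.55% of the 53 DOWN genes, while 9.43% had the opposite one. Within both sets 24.5% of DOWN genes were lower in Psat1KO and 26.4% were higher. Implied reads were 47 and 110 in Psat1KO, against 47 and 134 in CTRL. In set 1 the lower signal thus came from the same number of implied reads in a deeper library. The fold was 0.741 in set 1 (95% counting interval 0.484 to 1.13) and 0.825 in set 2 (0.632 to 1.06). Among the 49 DOWN genes with a signal above 0.005 in every library, 93.9% had a higher fold in set 1 and 95.9% in set 2. The means were 0.0154 ± 0.000284 in Psat1KO and 0.0198 ± 0.00114 in CTRL (SD, n = 2 each). The log2 difference was -0.28 with an SE of 0.10 and an interval of -0.56 to 0.01, with an adjusted p of 0.953 and an unadjusted p of 0.0527 in limma. The bins of DOWN genes may sample other positions in each set, so this mean and its spread also hold any such difference between sets.

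**Figure D1:**
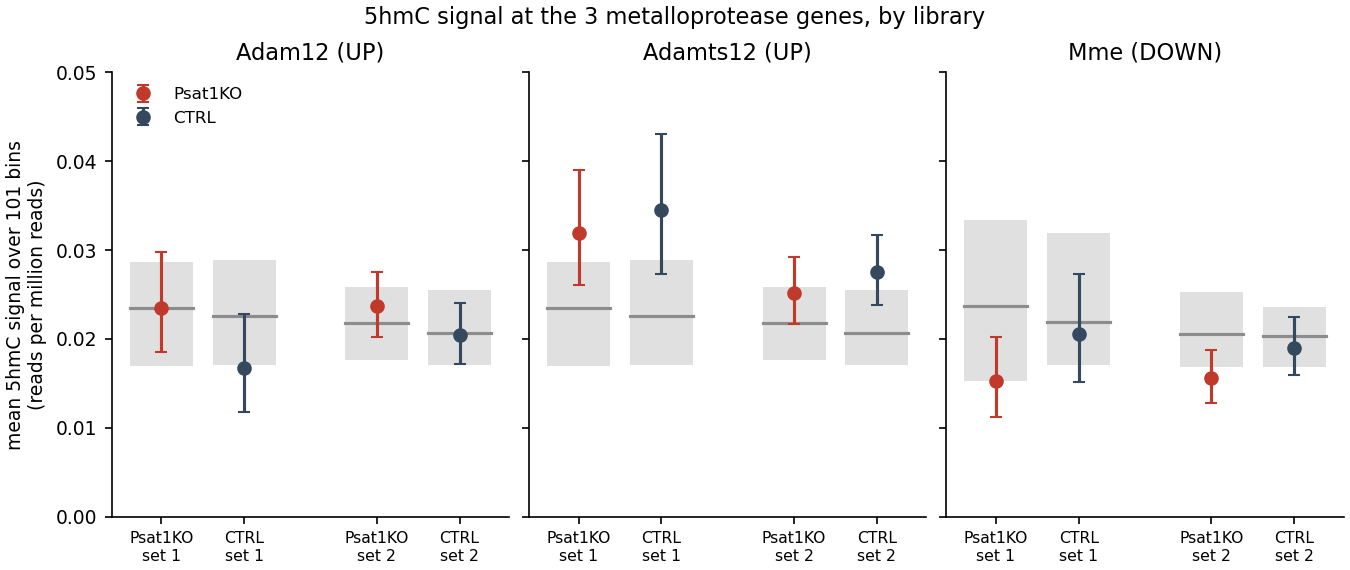
Mean 5hmC signal over all bins, in reads per 1000000 reads, for Adam12, Adamts12 and Mme in each library. Points carry 95% Poisson counting intervals, and grey lines and boxes give the median and the interquartile range of the genes with the same mark in that library. The Psat1KO points lie above the CTRL points for Adam12 and below them for Mme in each set, with intervals that overlap.

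By limma, 0 of the 273 genes had an adjusted p under 0.05 (0%), with 8 at an unadjusted p under 0.05 and a smallest adjusted p of 0.953. At that unadjusted threshold 13.65 genes would be expected if none differed. With 2 libraries per genotype, an exact two-sided permutation test cannot go below 0.333. Among the UP genes folds from the 5th to the 95th percentile ran from 0.652 to 1.51 in set 1 and from 0.807 to 1.31 in set 2. Their median folds were 0.962 and 1.04. Adam12 ranked 21 and 50 from the highest fold among the 214 UP genes above 0.005 in sets 1 and 2, and Adamts12 ranked 126 and 174. Mme ranked 47 and 48 of 49 DOWN genes, where the median folds were 0.999 and 1.01.

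**Figure D2:**
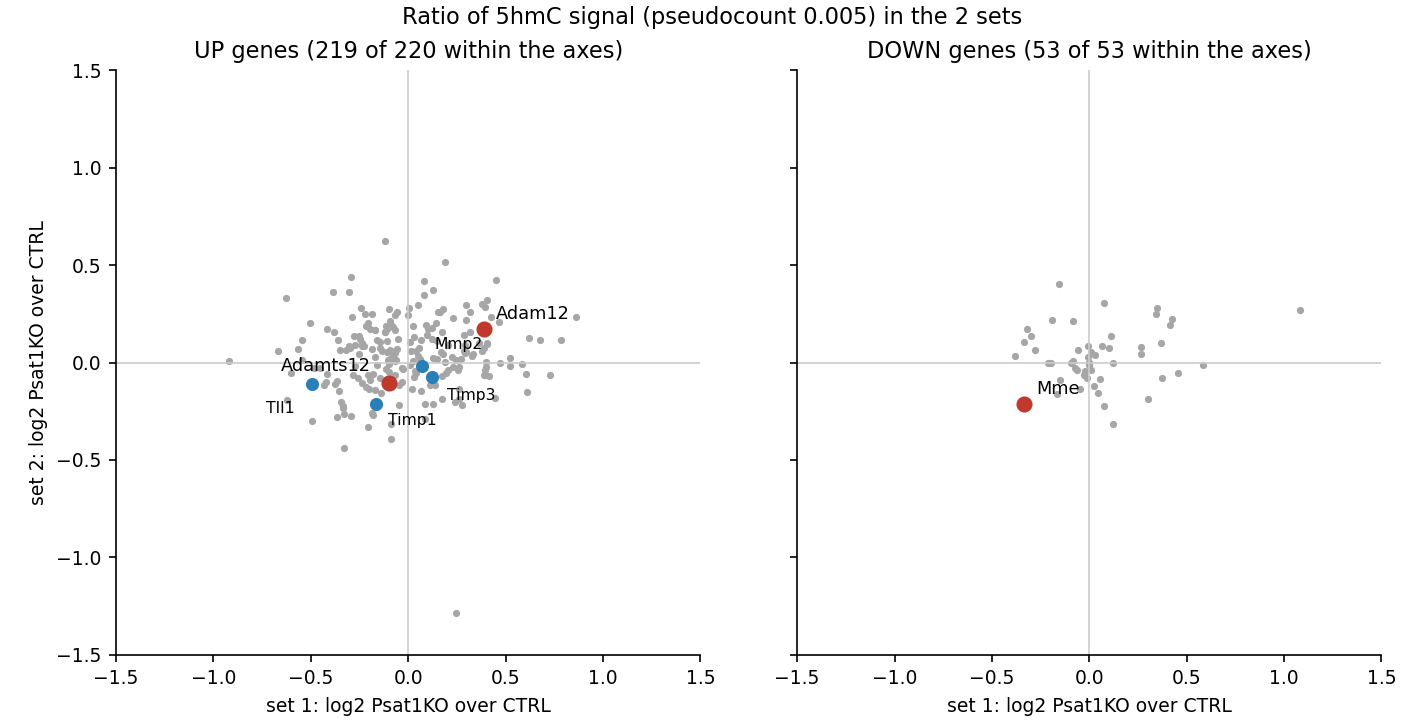
Log2 ratio of Psat1KO over CTRL signal (pseudocount 0.005) in set 1 on the x axis and in set 2 on the y axis, for UP genes and DOWN genes. Red points are the 3 metalloproteases, blue points the other metalloprotease and inhibitor genes, and grey points all others; Hic1 (-0.57, -2.97) lies outside the axes. Adam12 (0.39, 0.17) is in the upper right quadrant, Adamts12 (-0.10, -0.11) and Mme (-0.34, -0.22) in the lower left.

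The levels of the 3 genes within each library ran from Adamts12, the highest, down to Mme in the Psat1KO libraries. In Psat1KO, Adamts12 ranked 36 and 66 of 220 UP genes, against 32 and 37 in CTRL. Adam12 ranked 110 and 88 in Psat1KO, near the middle of the UP genes, against 168 and 115 in CTRL. Mme ranked 43 and 43 of 53 DOWN genes in Psat1KO, against 30 and 30 in CTRL. Adam12 and Mme were neighbours in this order, across marks whose windows may differ. In the set 1 CTRL library Mme had 0.0206 and Adam12 0.0168, the reverse of their order in the other libraries, and their Poisson intervals overlapped there (0.0151 to 0.0273 for Mme and 0.0118 to 0.0228 for Adam12).

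Adam12 signal was spread over many bins of low coverage. Bins without a read numbered 63 and 41 in Psat1KO, against 74 and 48 in CTRL. In set 2 the highest bin was bin 70 in both libraries, with 14.9 reads in Psat1KO and 14 in CTRL. In set 1 the highest bins differed, with 6 reads at bin 22 in Psat1KO and 3.1 reads at bin 64 in CTRL. Leaving out the bin highest in the Psat1KO and CTRL libraries together gave folds of 1.44 and 1.17, so the higher Psat1KO signal did not rest on that bin. Counting bins, 20 were higher in Psat1KO within both sets, 5 were lower in both and 76 were neither. The same count was not made for the other UP genes, so whether it is unusual was not tested. In set 1 the Psat1KO library was also the deeper one.

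Across 5 stretches of bins, the higher Adam12 signal in Psat1KO was largest in bins 81 to the last. There the signal was 0.0272 and 0.0232 in Psat1KO, against 0.0107 and 0.0160 in CTRL, from 17 and 34 against 5 and 23 reads. The folds were 2.53 (counting interval 0.892 to 8.73) and 1.45 (0.845 to 2.63). Limma gave a log2 difference of 0.73 with an SE of 0.23 and an adjusted p of 0.984 over 1365 gene stretches, with an unadjusted p of 0.0460. Bins 41 to 60 had similar folds in the 2 sets, 1.28 and 1.3, with limma's adjusted p again at 0.984. Bins 21 to 40 differed between sets, with a fold of 2.47 from 17 against 5 reads in set 1 and 0.970 from 30 against 31 reads in set 2. In bins 61 to 80, which held the highest bin of set 2, the folds were 0.930 and 0.995, and in bins 1 to 20 they were 0.829 and 1.34. Of the 1365 stretches, 0 had an adjusted p under 0.05 in limma (0%), with 40 at an unadjusted p under 0.05. If no stretch differed, 68.25 would be expected at that unadjusted threshold.

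Adamts12 had a bin profile that recurred in every library. Bin 12 was the highest in all 4 libraries, with a signal of 0.431 and 0.193 in Psat1KO, against 0.354 and 0.220 in CTRL. This corresponded to 13.2 and 13.4 reads in Psat1KO, against 8.0 and 15.4 in CTRL. Sharing the highest bin across the 4 libraries occurred at 7 of 214 UP genes (3.27%). The correlation of the profile over all bins between Psat1KO and CTRL was 0.631 in set 1 and 0.828 in set 2, which ranked 6 and 9 of 220 UP genes. Between sets it was 0.728 in Psat1KO and 0.609 in CTRL. These correlations describe neighbouring bins of 1 gene, which share sequence and library, and a high bin also contributes to each. For Adam12 the values between Psat1KO and CTRL were 0.200 and 0.647, ranking 154 and 94.

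Of the other bins that ranked among the 3 highest of a library, 3 changed direction between sets and 2 did not. Bin 25 had a signal of 0.162 and 0.129 in Psat1KO, against 0.0442 and 0.213 in CTRL. Bin 65 had 0.242 and 0.0971 in Psat1KO, against 0.133 and 0.165 in CTRL. Both were thus higher in Psat1KO in set 1 and lower in set 2, whereas the last bin went the other way, with 0.196 and 0.115 in Psat1KO, against 0.265 and 0.10 in CTRL. Bin 66 was lower in Psat1KO within both sets, with 0.0327 and 0.126 in Psat1KO, against 0.179 and 0.140 in CTRL. Bin 96 was likewise lower, with 0.0982 and 0.0112 in Psat1KO, against 0.307 and 0.0283 in CTRL. These bins held at most 14.9 reads in a library, and bin by bin no test was made. Some directions rested on very few reads, with 1 in Psat1KO against 4 in CTRL at bin 66 in set 1. At bin 96 in set 2 there were 0.8 against 2 reads. Without bin 12 the folds were 0.892 and 0.920, so the slightly lower Psat1KO signal did not rest on the peak.

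Along the Adamts12 profile, bins 1 to 20 were the highest stretch and bins 41 to 60 the lowest in all 4 libraries. The highest stretch includes bin 12, which held 13.3% and 7.57% of the signal in Psat1KO, against 10.1% and 7.93% in CTRL. Without bin 12 it would not be the highest stretch in every library. Bins 1 to 20 had a signal of 0.0509 and 0.0396 in Psat1KO, against 0.0484 and 0.0388 in CTRL, with folds of 1.05 and 1.02. Bins 41 to 60 had 0.0212 and 0.0143 in Psat1KO, against 0.0178 and 0.0122 in CTRL, with folds of 1.19 and 1.18. Folds were below 1 in both sets in bins 81 to the last, with 0.602 and 0.920, and in set 2 alone in bins 21 to 40, with 0.60 (counting interval 0.358 to 0.988). In set 1 bins 21 to 40 had a fold of 1.08, and bins 61 to 80 had folds of 0.911 and 1.01. The log2 differences by stretch lay between -0.37 and 0.19, and the smallest adjusted p of limma among them was 0.984.

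**Figure D3:**
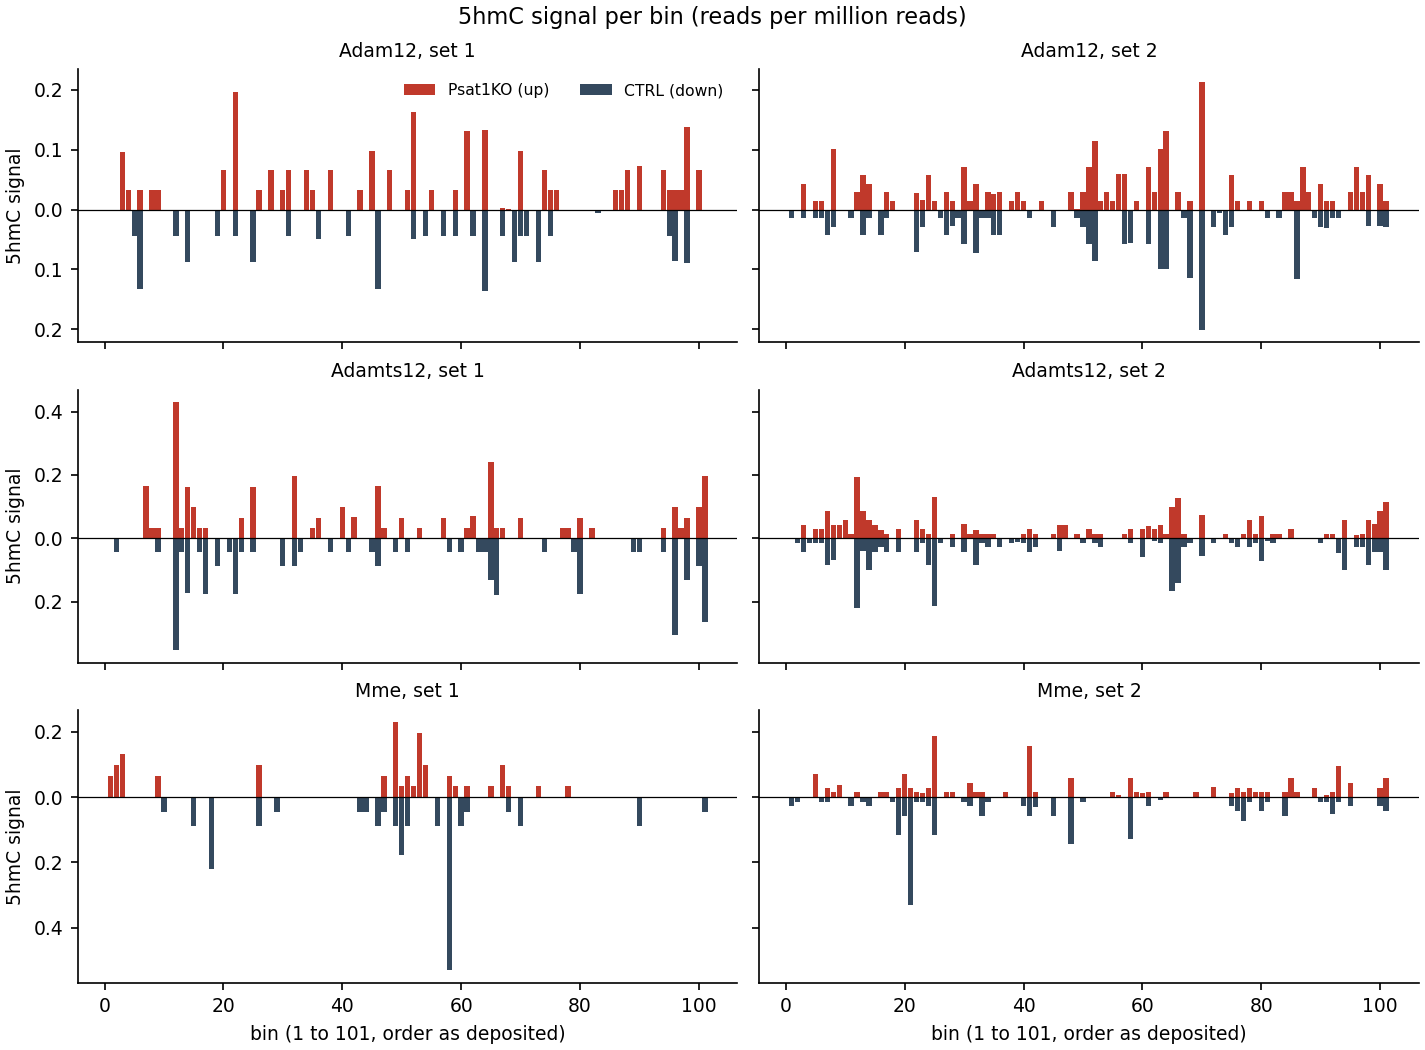
5hmC signal in reads per 1000000 reads along the bins of each gene, with Psat1KO drawn above the line and CTRL below it, for the 2 sets. The Adamts12 peak at bin 12 is the highest bin in all 4 libraries, whereas the highest Mme bins are bin 58 of set 1 and bin 21 of set 2 in CTRL.

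**Figure D4:**
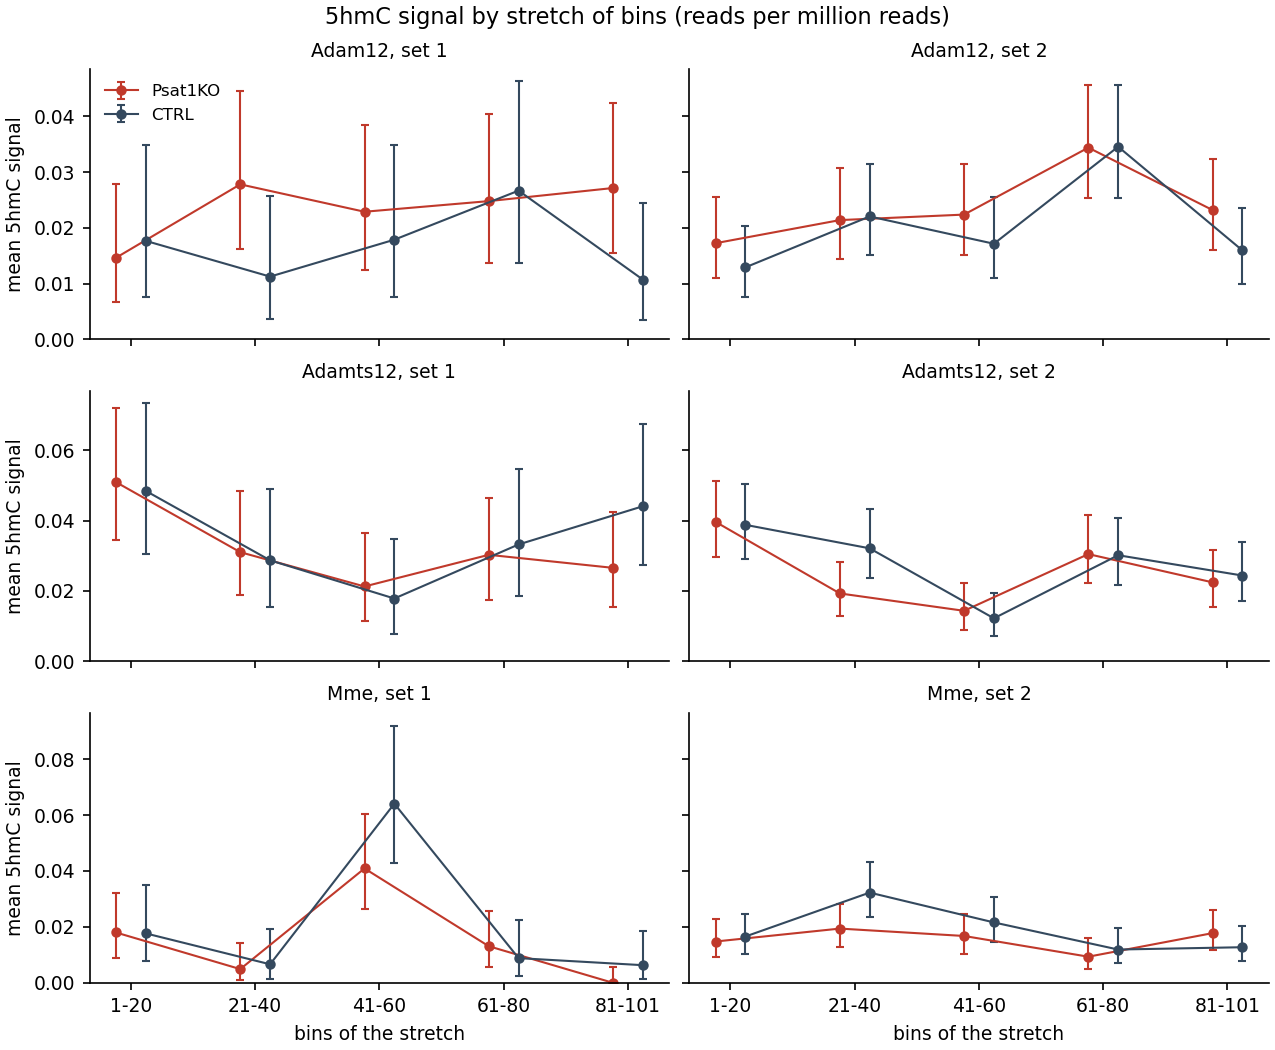
Mean 5hmC signal, in reads per 1000000 reads, in 5 consecutive stretches of bins for each gene and set, with 95% Poisson counting intervals. For Adam12 the Psat1KO points lie above the CTRL points in bins 81 to the last within both sets, and for Adamts12 bins 1 to 20 are the highest stretch in both genotypes.

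In each set, 1 bin that was high in CTRL held much of the difference in Mme signal, but not every bin summary depended on it. In set 1, bin 58 held 12 reads in CTRL, 25.5% of its signal, against 2 reads in Psat1KO at the same bin. In set 2, bin 21 held 23 reads in CTRL, 17.2% of its signal, against 2 in Psat1KO. Without that bin in both libraries, the folds were 0.952 in set 1 and 0.978 in set 2, and the log2 difference was -0.04 in place of -0.28. That choice takes out a bin that was high in CTRL, and leaving out each library's own highest bin gave folds of 0.846 and 0.878. Both of these alternatives were chosen after seeing the data. A 10% trimmed mean, which drops 10% of bins at each end in each library, gave folds of 0.741 and 0.929. In set 1 the fold thus stayed at its value over all bins with the highest bins of both libraries dropped. The highest Psat1KO bins were bin 49 in set 1, with 7 reads, and bin 25 in set 2, with 13.1 reads.

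The Mme profiles resembled each other less between genotypes than those of most DOWN genes in set 2. There the correlation over bins was 0.397, ranking 48 of 50 DOWN genes, and in set 1 it was 0.198, ranking 30. Bins without a read numbered 81 and 52 in Psat1KO (80.2% and 51.5%), against 81 and 59 in CTRL (80.2% and 58.4%). The medians of the 49 DOWN genes above 0.005 in every library were 68.3% and 42.6% in Psat1KO, against 71.3% and 44.6% in CTRL. Bins 21 to 40 of set 2 had a fold of 0.601 from 27 against 45 reads, with a counting interval of 0.358 to 0.988, and they included bin 21. Bins 41 to 60 of set 1 had a fold of 0.638 from 25 against 29 reads, and they included bin 58. Also in set 1, bins 1 to 20 had a fold of 1.02 from 11 against 8 reads. Bins 21 to 40 had 0.741 from 3 against 3 reads there, and bins 61 to 80 had 1.48 from 8 against 4 reads. In the other 4 stretches of set 2 the folds were 0.892, 0.776, 0.785 and 1.4, with counting intervals that each included 1. In bins 81 to the last of set 1, Psat1KO had 0 reads and CTRL had 3, and no fold is given there.

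**Figure D5:**
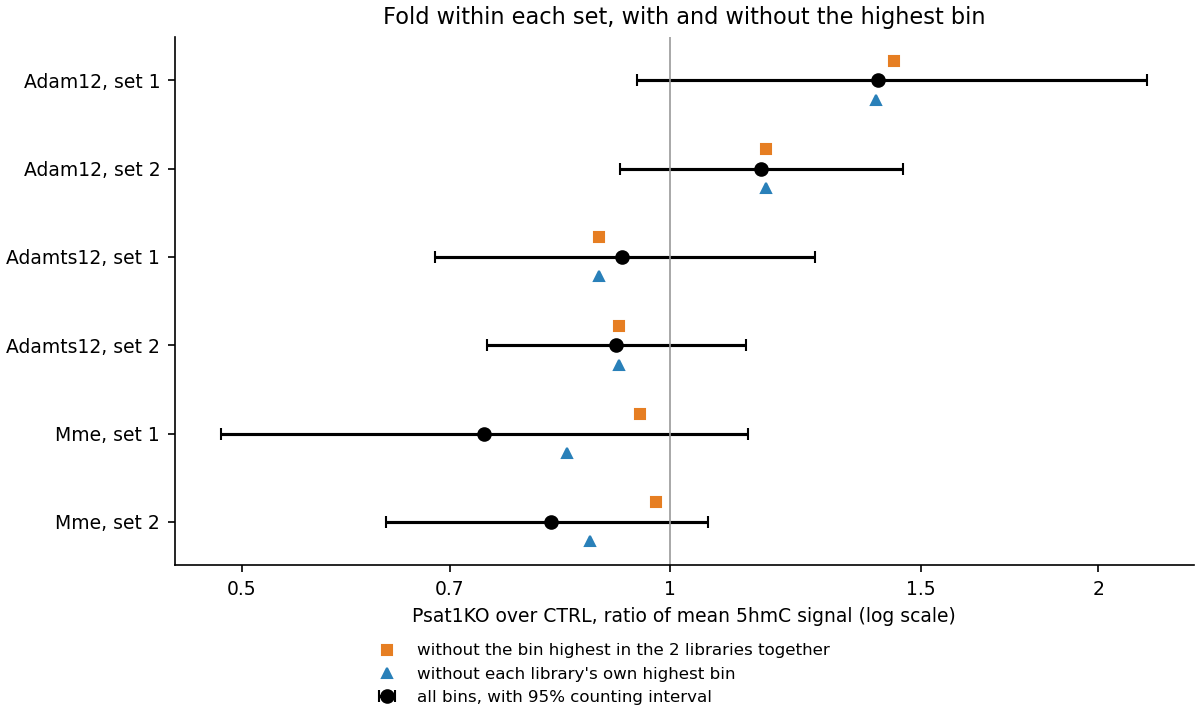
Psat1KO over CTRL ratio of mean 5hmC signal within each set, on a log scale, for the 3 genes. Black points use every bin and carry 95% counting intervals; squares leave out the bin highest in the 2 libraries together and triangles each library's own highest bin. The Mme squares (0.952 and 0.978) lie near 1, whereas the Adam12 squares (1.44 and 1.17) stay near the black points.

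Of 106 listed genes of metalloprotease families, their relatives and inhibitors, 7 were in the deposited values, 6 marked UP and Mme marked DOWN. Of these, 0 had an adjusted p under 0.05 in limma in either direction. Adam12 was the single gene of the 7 that was higher in Psat1KO within both sets, and 4 were lower within both (Adamts12, Mme, Tll1 and Timp1). Beside this, 30% of UP genes were higher and 22.7% lower within both sets, and 26.4% and 24.5% of DOWN genes. The 7 include the 3 genes chosen at the start, so their count and these shares are not a like comparison. The median log2 difference of the 7 was -0.10, beside 0.00317 over all 273 genes. Timp1, a secreted inhibitor of matrix metalloproteases, had 0.0204 and 0.0172 in Psat1KO, against 0.0235 and 0.0207 in CTRL, with folds of 0.869 and 0.831. Tll1, a tolloid-like protease that trims procollagens, had 0.0151 and 0.0177 in Psat1KO, against 0.0233 and 0.0196 in CTRL, with folds of 0.647 and 0.906. Both Psat1KO libraries lay below both CTRL libraries for these genes, a pattern of 12.7% of UP genes.

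The other inhibitor and protease did not keep 1 direction. Timp3, an inhibitor that binds to the matrix and also blocks ADAM and ADAMTS proteases, had 0.0328 and 0.0250 in Psat1KO, against 0.0297 and 0.0266 in CTRL, with folds of 1.10 and 0.939. Mmp2, gelatinase A, had the highest level of the 7 genes in each library, with 0.0470 and 0.0341 in Psat1KO, against 0.0446 and 0.0346 in CTRL, and folds of 1.05 and 0.988. The adjusted p of each of these 4 genes in limma was 0.953 or more.

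The genes most like each metalloprotease in level and in the ratios of both sets were found by Euclidean distance over those 3 values among genes with the same mark. Among those near Adam12 were Cav1 (folds 1.38 and 1.05) and Ccl2 (1.51 and 1.20), at distances of 0.118 and 0.135. Near Adamts12 were Col5a3 (0.864 and 0.953) and F3 (0.922 and 0.995), at 0.0970 and 0.145. Mme stood further from its neighbours Tceal5 (0.874 and 0.922), Hddc3 (0.873 and 0.860) and Tnfrsf1b (0.707 and 1.03), at 0.235 to 0.305, among the fewer DOWN genes. These distances rest on 4 libraries and describe likeness of values.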

How the data were processed

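Per the labels, DNA of about 300 bp fragments was immunoprecipitated for 5hmC and sequenced. The build mm10 and the tools MACS 1.4.2, Trim Galore 0.6.7 and Bowtie 1.3.1 are listed without role or parameters, per the submitters' processing notes. The authors deposited a coverage signal in bins along each gene, on 2 sheets of 1 Psat1KO and 1 CTRL library each. Replicate numbers follow the sheets, here set 1 and set 2. The sources used here give no tool behind the bins, no window and no UP and DOWN rule. Inputs (4 libraries) were not used, and signal was not compared with them.

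The share of low values that fell within 5% of a whole multiple of a library's step was 91.1% and 83.9% in Psat1KO, against 92.5% and 84.2% in CTRL. The step, taken as 1 read per 1000000, gave depth and implied reads. A count test was not run on coverage. Counting intervals (exact binomial for folds, Poisson for levels, 95%) compare libraries, cover counting error only, and are too narrow where neighbouring bins share reads.

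Limma 3.58.1 in R 4.3.3 was run on log2(mean signal + 0.005), without a filter or covariate, over all 273 genes and over 1365 stretches, with Benjamini-Hochberg adjustment at a threshold of 0.05. An earlier analysis used a pseudocount of 1, which nearly tests linear differences. The limma fit was run on simulated levels with a common normal spread, where only mean log2 differences were checked, not the share of changes found. Labels do not say that libraries came from separate animals, so p-values measure only the spread between them, which may be technical. Mme bins were compared within a set, because DOWN genes held exactly whole reads in 100% of bins of set 1, against 52.3% in Psat1KO and 54.4% in CTRL of set 2, and fit values by stretch are not given for it.

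The members and lists were chosen with earlier results of these data known. The rule for names took the 3 genes, the listed metalloproteases and inhibitors, the 2 largest and 2 smallest mean ratios of the matrix list, and the 3 nearest genes to each member. Some of the nearest genes are not reported here. Marker genes and Hic1 were named besides. Alternatives changed the pseudocount, filter, scaling, block, bin summary, genes in the fit, moderation and libraries. Leaving out the highest bins, shared or each library's own, was chosen after seeing the data. RefSeq names matched 268 genes by transcript and 5 by symbol.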

Additional observations from a re-analysis of the deposited data

How the results depend on the processing

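Under all 15 alternatives, 0 genes and 0 stretches had an adjusted p under 0.05 in limma. Counts at an unadjusted p under 0.05 ran from 2 to 15 genes and from 5 to 110 stretches, and the smallest adjusted p values were 0.154 and 0.548. The Adam12 difference stayed above 0, at 0.17 to 0.39 with a library left out and 0.01 to 0.37 otherwise, where the lowest value came from a pseudocount of 1. The Mme difference stayed below 0, at -0.32 to -0.23 and -0.34 to -0.01. The Adamts12 difference ran from -0.25 to 0.044 with a library left out, and from -0.16 to -0.0034 otherwise. With the replicate block, the adjusted p was 0.720 for Adam12, 0.760 for Adamts12 and 0.720 for Mme (limma), and the block changed no call. Same-numbered libraries deviated together with r = 0.221 over 220 UP and 0.728 over 50 DOWN genes, but the labels do not state a pairing. The bins of DOWN genes may sample other positions in each set, and the part of this in the DOWN value was not tested.

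With a library left out, stretch differences changed direction at Adam12 in bins 1 to 20 (-0.12 to 0.22) and 61 to 80 (-0.25 to 0.15). They did so at Adamts12 in bins 1 to 20 (-0.12 to 0.21), 21 to 40 (-0.54 to 0.026), 41 to 60 (-0.036 to 0.41), 61 to 80 (-0.11 to 0.0089) and 81 to the last (-0.74 to 0.0024). Without each library's own highest bin, bins 61 to 80 of Adam12 gave 0.081. Median scaling gave -0.019 in bins 1 to 20 of Adamts12, and the 10% trimmed mean gave 0.13 in its bins 61 to 80. The cause of these changes was not tested. Within-set folds ranged over 5 alternatives from 1.34 to 1.64 and 1.09 to 1.26 at Adam12, from 0.884 to 0.927 and 0.867 to 1.00 at Adamts12, and from 0.708 to 0.952 and 0.780 to 0.978 at Mme. Depth is lowest in the stretches of set 1, where bins 81 to the last of Mme held 0 reads in Psat1KO and 3 in CTRL.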

Other observations

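Of 59 matrix and substrate genes, 14 were in the deposited values, all marked UP, and 0 had an adjusted p under 0.05 in limma in either direction. Of these, 5 were higher in Psat1KO within both sets and 3 were lower within both, beside 30% and 22.7% of all UP genes. The median log2 difference was 0.04, beside 0.00317 over all genes. The largest mean ratios belonged to Bgn, which encodes the small proteoglycan biglycan, and Col1a1, a chain of type I collagen. Bgn had 0.0214 and 0.0231 in Psat1KO, against 0.0149 and 0.0175 in CTRL, with folds of 1.43 and 1.32, and Col1a1 had folds of 1.38 and 1.08. The smallest belonged to Dcn, which encodes decorin, a close relative of biglycan, and Lox, a collagen cross-linking enzyme. Dcn had 0.0159 and 0.0164 in Psat1KO, against 0.0213 and 0.0207 in CTRL, with folds of 0.749 and 0.794, and Lox had folds of 0.691 and 0.912. Limma gave each of these 4 genes an adjusted p of 0.953, with unadjusted p values of 0.0383 for Bgn and 0.0379 for Dcn.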
